A study of Mus musculus with 8 samples.

Results

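A set of 10 genes that mark hepatic stellate cells and fibroblasts was followed across the liver arrays of a mouse diet study. They were chosen as the gene probes, controls left out, whose name in the array files is Pdgfrb, Pdgfra, Ngfr, Lum, Dcn, Des, Acta2, Reln, Hgf or Vim. These 10 genes stand among 27191 named genes on the array, and they are read by 23 of its 41174 gene probes. All 10 genes passed the filter on dim probes, which asks that in some diet group both arrays read the probe well above background, as did 17259 genes of the array. At the level of probes, 16 of the 23 passed that filter.

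Liver RNA came from male C57Bl/6J mice aged 14 weeks, killed after a fast of 4 h, and was read on single-colour arrays, 2 per group. In BD_HF the dams ate a standard breeder diet and the offspring a high fat diet (60% of energy from fat) after weaning. In LF_HF a purified low fat diet with vitamin A (12% of energy from fat) replaced the dams' food from embryonic day 10.5, and the offspring were weaned onto the same high fat diet. VAD_VAD dams received the low fat diet without vitamin A and their offspring stayed on it, while LF_LF dams and offspring ate the low fat diet with vitamin A throughout. All dams began on the breeder diet. The study's own comparisons set BD_HF against LF_HF, LF_HF against LF_LF, and VAD_VAD against LF_LF, and BD_HF was also set against LF_LF here. The labels do not say that each sample came from its own animal, so the p-values measure only the spread between these samples.

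Hepatic stellate cells lie between the sinusoidal endothelium and the hepatocytes and hold most of the liver's vitamin A as retinyl ester droplets. In a resting liver they are quiescent. When the liver is injured they lose these droplets, gain contractile filaments and lay down collagen, a change called activation, which is reversible. Fibroblasts of the portal tract share many of their matrix genes. Reln, Hgf, Ngfr and Dcn were grouped here as markers of the quiescent state, and Acta2, Vim, Pdgfrb and Lum as markers of the activated one. Des and Pdgfra were left without a state.

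Ngfr and Acta2 were read by several probes that did not behave alike, so the sequence of a probe of each is shown first, in lower case, 5′ to 3′. The first is the dimmer of the 2 probes for Ngfr, the low-affinity neurotrophin receptor, on the minus strand at chr11:95435537-95435596 of mm9. The second is the brightest probe for Acta2, smooth muscle actin, on the minus strand at chr19:34322995-34326249 of mm9. Its 60 bases are spread over 3255 bases of genome, so it joins parts of the transcript on either side of a splice junction. An mm9 annotation was not used here, so exons and untranslated regions are not assigned.
Ngfr probe A_51_P384968: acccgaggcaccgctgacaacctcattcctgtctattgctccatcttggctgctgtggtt
Acta2 probe A_51_P450957: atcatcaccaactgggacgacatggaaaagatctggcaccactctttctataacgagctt

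Vim was lowest in LF_HF and Ngfr in VAD_VAD, and their promoters are shown as those of 2 members whose groups took a different order. The sequences are RefSeq's for the 250 bases before the start of each gene in GRCm38.p6. RefSeq promoters were matched for 7 of the 10 members. The motifs were searched on both strands. They were the TATA box TATAAA and the Sp factor motif GGGCGG. The others were the AP-1 motif TGANTCA, the nuclear receptor motif AGGTCA as a single copy, the E-box CANNTG, and the serum response element known as the CArG box. The last was searched only in its exact form CCWWWWWWGG, where W is A or T. A CArG box with a mismatch would not have been found.
Vim promoter, plus strand, chr2:13574061-13574310, with TATAAA in capitals: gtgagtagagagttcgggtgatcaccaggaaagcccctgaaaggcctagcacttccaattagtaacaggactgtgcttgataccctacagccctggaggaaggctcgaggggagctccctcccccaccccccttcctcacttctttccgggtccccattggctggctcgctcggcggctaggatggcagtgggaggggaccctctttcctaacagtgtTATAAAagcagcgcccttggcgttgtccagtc
Ngfr promoter, minus strand, chr11:95587699-95587948, with GGGCGG or its complement in capitals: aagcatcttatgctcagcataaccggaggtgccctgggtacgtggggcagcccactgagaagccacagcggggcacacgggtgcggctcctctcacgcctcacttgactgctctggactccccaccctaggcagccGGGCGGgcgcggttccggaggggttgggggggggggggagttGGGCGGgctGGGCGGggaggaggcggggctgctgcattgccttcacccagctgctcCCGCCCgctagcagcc

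The Vim promoter held 1 TATAAA, at position -32 from the start, a motif found in 12.4% of 32851 promoters of that length. The Ngfr promoter held GGGCGG 4 times, and 32.7% of promoters held it at least once. No matched member promoter held a CArG box of the exact form, which 1.47% of promoters held, or TGANTCA (6.75%) or AGGTCA (14% of promoters). Whether they hold CArG boxes with a mismatch was not searched. CANNTG was present in 66.2% of promoters. These matches describe the letters in the window and were not set against the diets.

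Levels below are log2 signal minus the 75th percentile of the same array, so that 0 is the brightness of the probe at that percentile, and a gene with several probes is read by its brightest. The array of LF_HF replicate 1 stood apart. Feature Extraction set 82.2% of its gene probes well above background and between 56.5% and 64.2% of those on each of the other 7 arrays, and 2707 of its spots were set aside as outliers, beside 46 to 316 elsewhere. The software rated that array for evaluation and the others within range. The 2 LF_HF arrays correlated at 0.919 across genes (genes are not independent replicates), and the pairs of the other groups at 0.977 to 0.992. Each slide held 1 array of every group, with replicate 1 of each group on slide 1.

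The mean of 8 of the 10 members was highest in LF_LF, and the mean of 8 was lowest in LF_HF. Hgf was highest in VAD_VAD and Acta2 in BD_HF. Ngfr was lowest in VAD_VAD and Acta2 in LF_LF. In limma's moderated F test over the 4 groups, 2 members passed at an adjusted p under 0.05, Lum (adjusted p = 0.0319) and Pdgfrb (adjusted p = 0.0385), where 0.892% of genes tested did. In whole liver, fewer cells of a type and less RNA per cell cannot be told apart.

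**Figure D1:**
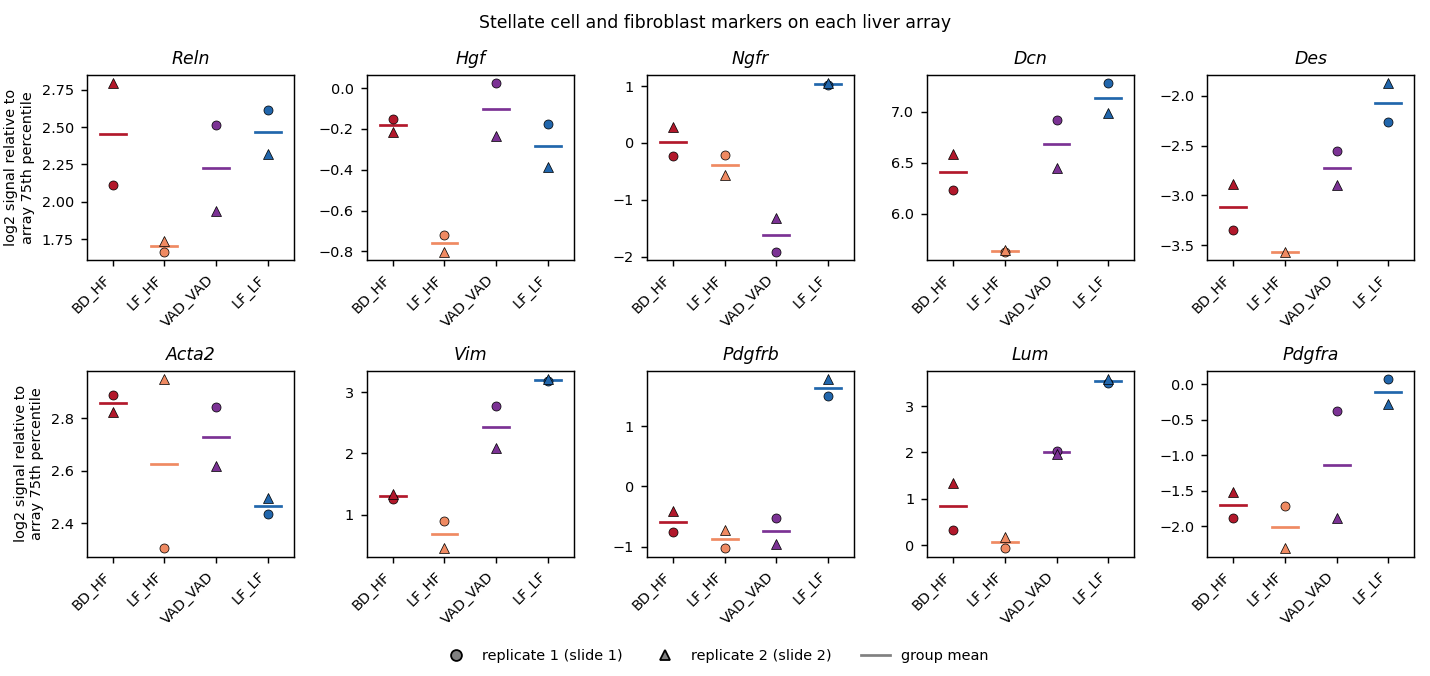
Level of each marker on each array, as log2 signal relative to the array's 75th percentile (vertical axis, scaled for each gene), by diet group (horizontal axis). Circles are replicate 1, triangles replicate 2 and lines the group means; Lum, Pdgfrb and Vim are highest on both LF_LF arrays, and Des has no value on LF_HF replicate 1.

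Lumican (Lum), a small proteoglycan that binds collagen fibrils, had the largest differences among the members in LF_HF and BD_HF. Its levels were 0.33 and 1.34 on the BD_HF arrays, -0.061 and 0.19 in LF_HF, 2.04 and 1.97 in VAD_VAD, and 3.49 and 3.58 in LF_LF. Both LF_LF arrays stood above every other array, both VAD_VAD arrays came next, and no neighbouring groups overlapped. Lum fell 11.1-fold in LF_HF relative to LF_LF, a log2 difference of -3.47 ± 0.39 (SE, n = 2 arrays each; limma, adjusted p = 0.0106). It fell 6.47-fold in BD_HF relative to LF_LF, a difference of -2.69 ± 0.39 (limma, adjusted p = 0.0262). The VAD_VAD difference of -1.52 ± 0.39 did not pass (limma, adjusted p = 0.207).

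Pdgfrb encodes the receptor for PDGF-B and PDGF-D, through which stellate cells are driven to divide and migrate. Its levels were -0.76 and -0.41 on the BD_HF arrays, -1.03 and -0.72 in LF_HF, -0.53 and -0.96 in VAD_VAD, and 1.51 and 1.78 in LF_LF. Here the 3 other groups overlapped one another and all of their arrays lay below both LF_LF arrays. Pdgfrb fell 5.74-fold in LF_HF (difference -2.52 ± 0.33 on the log2 scale, SE; limma, adjusted p = 0.0163). It fell 5.24-fold in VAD_VAD (difference -2.39 ± 0.33; limma, adjusted p = 0.0399) and 4.69-fold in BD_HF (difference -2.23 ± 0.33; limma, adjusted p = 0.0280), each relative to LF_LF. Pdgfrb was the only member called in all 3 comparisons with LF_LF, which share the same LF_LF arrays, but the VAD_VAD call was lost with the slide as a block (limma, adjusted p = 0.0581). Within slide 1 the Pdgfrb differences from LF_LF were -2.27 in BD_HF, -2.54 in LF_HF and -2.04 in VAD_VAD, and within slide 2 they were -2.19, -2.51 and -2.74 in the same groups.

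Vimentin (Vim), the intermediate filament protein of mesenchymal cells, read 1.25 and 1.34 on the BD_HF arrays, 0.90 and 0.45 in LF_HF, 2.77 and 2.08 in VAD_VAD, and 3.18 and 3.21 in LF_LF. The groups did not overlap, and their order was that of Lum. Vim fell 5.73-fold in LF_HF relative to LF_LF (difference -2.52 ± 0.35 on the log2 scale, SE; limma, adjusted p = 0.0201). The difference of BD_HF from LF_LF, -1.90 ± 0.35, lay just outside the threshold (limma, adjusted p = 0.0542). It passed without both LF_HF arrays (limma, adjusted p = 0.0121), a fit that called 1580 genes in all, against 262 with them. In VAD_VAD the difference was -0.77 ± 0.35 (adjusted p = 0.531).

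Acta2, the contractile actin of smooth muscle and of myofibroblasts, did not follow the other activated markers. Its levels were 2.89 and 2.82 on the BD_HF arrays, 2.31 and 2.95 in LF_HF, 2.84 and 2.62 in VAD_VAD, and 2.44 and 2.50 in LF_LF. LF_HF overlapped every other group, while the BD_HF and VAD_VAD arrays lay above both LF_LF arrays by less than 1 log2 unit. The differences from LF_LF were 0.39 ± 0.33 in BD_HF, 0.16 ± 0.33 in LF_HF and 0.26 ± 0.33 in VAD_VAD, none past the threshold (limma, adjusted p from 0.736 to 0.858). Actin genes are close in sequence, so signal from other actins at these probes cannot be told apart from Acta2.

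The probes for Acta2 gave different answers. The probe across a splice junction, printed above, was the one used for the gene. Another Acta2 probe, A_52_P420504, at chr19:34316060-34316119 of mm9, read -1.23 and -1.52 on the BD_HF arrays, -1.64 and -1.02 in LF_HF, -0.67 and -1.61 in VAD_VAD, and 1.03 and -0.08 in LF_LF. On it the LF_LF arrays were the highest, as for most other members. Its differences from LF_LF were -1.86 in BD_HF, -1.80 in LF_HF and -1.61 in VAD_VAD, and none passed in a fit over all probes (limma, adjusted p from 0.155 to 0.340). A dimmer Acta2 probe that passed the filter, A_52_P239556, had differences from LF_LF of 0.45 in BD_HF, 0.52 in LF_HF (on 1 array) and 0.63 in VAD_VAD (limma over all probes, adjusted p from 0.788 to 0.875). Of the 3 Acta2 probes that passed, 2 thus lay above LF_LF and 1 below, with no difference past the threshold.

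**Figure D2:**
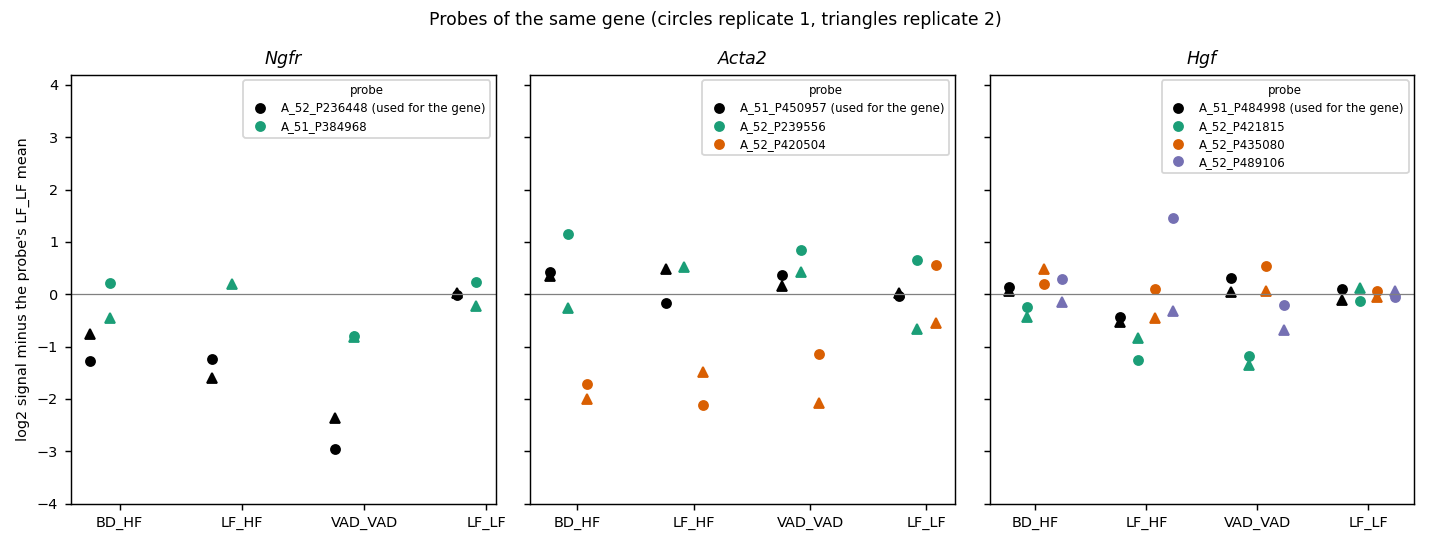
Probes of Ngfr, Acta2 and Hgf that passed the filter, as log2 signal minus the mean of the same probe in LF_LF (vertical axis), by diet group (horizontal axis); each colour is a probe, circles are replicate 1 and triangles replicate 2. The Acta2 probe A_52_P420504 lies below its LF_LF mean on all arrays of the other groups, while the probe used for the gene lies near or above it.

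Among the quiescent markers, Ngfr stood apart from the rest. The receptor read -0.23 and 0.28 on the BD_HF arrays, -0.21 and -0.56 in LF_HF, -1.91 and -1.32 in VAD_VAD, and 1.02 and 1.06 in LF_LF. Both VAD_VAD arrays were below all others and both LF_LF arrays above all others, with BD_HF and LF_HF overlapping in between. Ngfr fell 6.30-fold in VAD_VAD relative to LF_LF (difference -2.65 ± 0.36 on the log2 scale, SE; limma, adjusted p = 0.0348), a call lost with the slide as a block (adjusted p = 0.0507). The differences of -1.42 ± 0.36 in LF_HF (adjusted p = 0.103) and -1.01 ± 0.36 in BD_HF (adjusted p = 0.287) did not pass in limma. Ngfr passed in LF_HF with either LF_HF array left out, as more genes of the whole array then did (difference -1.60 without LF_HF replicate 1).

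The dimmer Ngfr probe printed above showed less. It read -2.14 and -2.81 in BD_HF, -2.15 on the 1 LF_HF array with a value, -3.14 and -3.17 in VAD_VAD, and -2.13 and -2.58 in LF_LF. The VAD_VAD arrays were again the lowest, but the difference from LF_LF was -0.80 (limma over all probes, adjusted p = 0.576), against -2.65 on the brighter probe. On this probe LF_HF was not below LF_LF.

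Decorin (Dcn), a collagen-binding proteoglycan that quiescent stellate cells make in large amounts, was brighter than 97.6% of the genes tested, although levels of different probes are not comparable as amounts of RNA. It read 6.23 and 6.59 on the BD_HF arrays, 5.63 and 5.65 in LF_HF, 6.91 and 6.45 in VAD_VAD, and 7.28 and 6.98 in LF_LF. LF_HF was below all other arrays and LF_LF above them, with BD_HF and VAD_VAD overlapping. The difference between LF_HF and LF_LF was -1.49 ± 0.33 and did not pass (limma, adjusted p = 0.0701). It passed with either LF_HF array left out, as more genes of the whole array then did (difference -1.48 without LF_HF replicate 1). The differences from LF_LF were -0.72 ± 0.33 in BD_HF and -0.45 ± 0.33 in VAD_VAD.

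Reelin (Reln), a secreted glycoprotein that stellate cells make in the liver, read 2.12 and 2.80 on the BD_HF arrays, 1.67 and 1.74 in LF_HF, 2.52 and 1.94 in VAD_VAD, and 2.62 and 2.32 in LF_LF. Only the LF_HF arrays stood clear of the others. Its differences from LF_LF were -0.014 ± 0.37 in BD_HF, -0.77 ± 0.37 in LF_HF and -0.24 ± 0.37 in VAD_VAD, none past the threshold (limma, adjusted p from 0.361 to 0.995).

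Hgf, the growth factor that stellate cells send to hepatocytes through the receptor Met, read -0.15 and -0.21 on the BD_HF arrays, -0.72 and -0.80 in LF_HF, 0.025 and -0.23 in VAD_VAD, and -0.18 and -0.39 in LF_LF. Both LF_HF arrays were again the lowest and the other groups overlapped. The LF_HF difference from LF_LF was -0.48 ± 0.30 (limma, adjusted p = 0.471), and those of BD_HF and VAD_VAD were 0.10 ± 0.30 and 0.18 ± 0.30. Of its other 3 probes, A_52_P435080 lay near it in VAD_VAD, at 0.30 from LF_LF, while A_52_P421815 was at -1.26 and A_52_P489106 at -0.44. In LF_HF these probes were at -0.18, -1.05 and 0.57 in the same order. None of these differences passed the threshold (limma over all probes, adjusted p from 0.176 to 0.839).

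Of the members without a state, Pdgfra, the PDGF receptor of fibroblasts, read -1.88 and -1.51 on the BD_HF arrays, -1.71 and -2.31 in LF_HF, -0.38 and -1.88 in VAD_VAD, and 0.072 and -0.28 in LF_LF. The VAD_VAD arrays lay far apart, 1 beside LF_LF and 1 among the high fat arrays. Its differences from LF_LF were -1.59 ± 0.52 in BD_HF, -1.91 ± 0.52 in LF_HF and -1.03 ± 0.52 in VAD_VAD, and none passed (limma, adjusted p from 0.127 to 0.577).

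Desmin (Des), the muscle-type intermediate filament by which stellate cells are often stained, was a dim probe with levels of -3.34 and -2.89 in BD_HF, -3.56 on LF_HF replicate 2, -2.56 and -2.89 in VAD_VAD, and -2.27 and -1.87 in LF_LF. All 10 spots of the probe were set aside as outliers on LF_HF replicate 1, so the LF_HF value rests on 1 array. Both LF_LF arrays were the highest. The differences from LF_LF were -1.05 ± 0.36 in BD_HF, -1.49 ± 0.44 in LF_HF and -0.65 ± 0.36 in VAD_VAD, none past the threshold (limma, adjusted p from 0.169 to 0.624). With outlier spots kept, the LF_HF difference turned to 0.66. In the fit without LF_HF replicate 1 it was -1.49 and passed, as more genes of the whole array then did.

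By comparison, LF_HF against LF_LF called 3 of the 10 members, all lower (Lum, Pdgfrb and Vim), where 2.5% of genes tested were called, 1.88% lower and 0.62% higher. The member arrays did not overlap and LF_HF was lower for 8 of the 9 members with values on all 4 arrays, against 21.3% of genes, and LF_HF was clear above for 0 members, against 20.9% of genes. The median difference of the members was -1.49, beside -0.022 over all genes tested. Leaving out either LF_HF array, the atypical one or the other, added calls among the members and also over the whole array. Calls gained in such fits, here and below, are therefore no result about the markers alone. Without LF_HF replicate 1 the differences were -3.34 for Lum, -2.37 for Pdgfrb and -2.74 for Vim. Leaving out either BD_HF array left 1 call, Lum, and leaving out either LF_LF array left 0, in fits where the lone array is assumed to vary like the other groups.

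VAD_VAD against LF_LF called 2 members, both lower (Ngfr and Pdgfrb), where 0.632% of genes were called, 0.527% lower and 0.104% higher. VAD_VAD arrays lay clear below LF_LF for 7 of 10 members, against 25.5% of genes, and clear above for Acta2, against 32.5% of genes. The members' median was -0.71, beside 0.094 over all genes. With the slide as a block, which here is also the replicate number, both calls were lost. The differences themselves were unchanged by the block, and within slides 1 and 2 they were -2.93 and -2.38 for Ngfr. Both calls were also lost on leaving out any 1 array of BD_HF, VAD_VAD or LF_LF. Without both LF_HF arrays 2 members were called, among 914 genes called in all, against 109 with them.

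BD_HF against LF_LF called 2 members, both lower (Lum and Pdgfrb), where 1.52% of genes were called, 1.06% lower and 0.458% higher. BD_HF lay clear below LF_LF for 7 of 10 members, against 25.9% of genes, and clear above for Acta2, against 34.1% of genes. The median was -1.03, beside 0.11 over all genes. Without both LF_HF arrays 3 members were called, among 1580 genes called in all, against 262 with them. The calls of Lum and Pdgfrb were lost on leaving out any 1 array of BD_HF, VAD_VAD or LF_LF.

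BD_HF against LF_HF, which share the high fat diet and differ in the diet of the dam, called 0 of the 10 members in limma, where 0.00579% of genes were called. In the same fit 0 members had an unadjusted p under 0.05, beside 931 of all 17259 genes. All 10 differences were above 0 in this scaling, as were 10663 of the 17259 genes tested. Acta2 was below 0 with 3 other scalings, and Pdgfrb and Pdgfra with the percentile over probes detected on all arrays. Des was below 0 with normexp background correction or with outlier spots kept, and Acta2 and Ngfr with the mean of a gene's probes. Relative to the median of all genes, Des and Acta2 each lay below 0 in 2 of 5 scalings. In the main scaling the members' differences ran from 0.23 for Acta2 to 0.77 for Lum, with a median of 0.51, beside 0.17 over all genes. BD_HF lay clear above LF_HF for 5 of the 9 members with all arrays, namely Reln, Hgf, Dcn, Vim and Lum, against 17.5% of genes, and clear below for 0, against 9.54% of genes. Without LF_HF replicate 1 the Acta2 difference was -0.091.

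**Figure D3:**
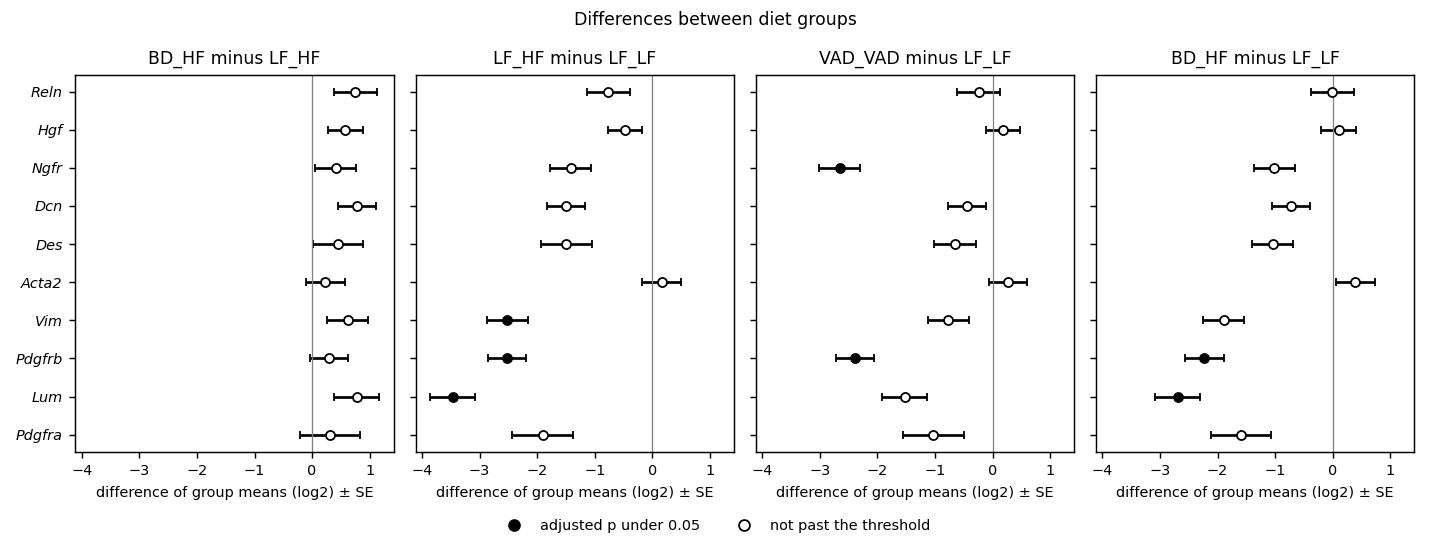
Difference of group means for each marker in the 4 comparisons, on the log2 scale with its SE (horizontal axis); genes run down the page with quiescent markers at the top. Filled points passed an adjusted p under 0.05 in limma: Lum, Pdgfrb and Vim in LF_HF, Ngfr and Pdgfrb in VAD_VAD, and Lum and Pdgfrb in BD_HF, each against LF_LF.

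The 2 states can be set side by side by averaging the 4 markers of each on every array, as log2 differences from the LF_LF mean. The quiescent mean was -0.60 and -0.23 on the BD_HF arrays, -0.997 and -1.08 on the LF_HF arrays, -0.70 and -0.88 on the VAD_VAD arrays, and 0.095 and -0.095 on the LF_LF arrays. The activated mean was -1.78 and -1.43 on the BD_HF arrays, -2.18 and -1.99 in LF_HF, -0.93 and -1.28 in VAD_VAD, and -0.056 and 0.056 in LF_LF. In the high fat groups the activated mean was thus the lower of the 2, by 1.18 and 1.21 in BD_HF and by 1.18 and 0.91 in LF_HF. In VAD_VAD the gap was 0.23 and 0.40, where the LF_LF arrays themselves lay at 0.15 and -0.15. The means were not tested. In VAD_VAD the quiescent mean was drawn down mainly by Ngfr, at -2.65 from LF_LF, beside 0.18 for Hgf, -0.24 for Reln and -0.45 for Dcn. The size of the gap in VAD_VAD thus depends on Ngfr, whose dimmer probe had a difference of only -0.80. It depends on the Acta2 probe as well. The probe used lay above LF_LF in all 3 groups, while A_52_P420504 was at -1.61 in VAD_VAD, -1.86 in BD_HF and -1.80 in LF_HF. The third Acta2 probe, A_52_P239556, was at 0.63, 0.45 and 0.52 in the same groups.

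Other genes of the same cells were read from lists. The lists were chosen with earlier results of these data known, so they are no independent support for the markers. Of 23 activated stellate cell genes tested, 9 fell in LF_HF, 2 in VAD_VAD and 6 in BD_HF relative to LF_LF, and 0 rose in limma. Of all genes tested, 1.88% fell in LF_HF, 0.527% in VAD_VAD and 1.06% in BD_HF, shares that serve for every list below. Col1a1, a chain of fibrillar collagen I, read -1.34 and -0.59 on the BD_HF arrays, -1.53 and -1.71 in LF_HF, -0.41 and -1.11 in VAD_VAD, and 3.22 and 2.87 in LF_LF. It was far lower on all 6 arrays outside LF_LF than on either LF_LF array. Col1a1 fell 25.4-fold in LF_HF (limma, adjusted p = 0.00472), 14.0-fold in VAD_VAD (adjusted p = 0.0168) and 16.1-fold in BD_HF (adjusted p = 0.00861). Col3a1, the chain of collagen III, fell 11.7-fold in LF_HF, 8.86-fold in VAD_VAD and 10.1-fold in BD_HF (limma, adjusted p from 0.00514 to 0.0177). With the mean over a gene's probes, all of these calls were lost. The log2 differences of Col1a1 were then -3.16 in LF_HF, -3.51 in VAD_VAD and -3.91 in BD_HF (adjusted p = 0.0897, 0.127 and 0.0622). Those of Col3a1 were -2.23, -3.11 and -2.84 in the same groups (adjusted p = 0.173, 0.152 and 0.128). Over all alternatives run, both collagens stayed below LF_LF in each group, with adjusted p from 1.81e-06 to 0.240. The others that fell in LF_HF were Col1a2, Ccn2, Mmp2, Sparc, S100a6, Tpm1 and Col5a2. The list's median was -1.90 in LF_HF, -1.04 in VAD_VAD and -1.76 in BD_HF, beside -0.022, 0.094 and 0.11 over all genes. Without LF_HF replicate 1 the median in LF_HF was -2.19. More of these genes then passed as lower in each group, as did more of all genes tested.

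Of 19 quiescent stellate cell genes tested, 1 fell in LF_HF, 2 fell in VAD_VAD and 1 fell in BD_HF, again with 0 higher. Lrat, the enzyme that esterifies retinol for storage, was called in VAD_VAD alone of these comparisons. It read 0.42 and 1.26 on the BD_HF arrays, 0.73 and -0.93 in LF_HF, -5.63 and -4.38 in VAD_VAD, and 1.08 and 0.53 in LF_LF. The 2 VAD_VAD arrays were far below all others, and 1 of them was not well above background. Lrat fell by 5.81 on the log2 scale in VAD_VAD relative to LF_LF (SE 0.66; limma, adjusted p = 0.0204). The size is uncertain, since a level at background has no exact value. With normexp background correction it was -2.80, and -2.73 with quantile scaling added, and over 21 alternatives it ran from -6.43 to -2.73, called in 12 of them (adjusted p from 0.00018 to 0.215). The quiescent list's median was -0.61 in LF_HF, -0.11 in VAD_VAD and 0.033 in BD_HF. Without LF_HF replicate 1 this median was -0.67 in LF_HF. More quiescent genes then passed as lower in LF_HF and VAD_VAD, and some as higher in VAD_VAD and BD_HF, while calls rose over all genes tested too.

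Of 16 portal fibroblast and mesothelial genes, 3 fell in LF_HF (Cd34, Dpt and Entpd2), 0 in VAD_VAD and 2 in BD_HF (Cd34 and Dpt). Without LF_HF replicate 1 the median of these genes in LF_HF was -2.49. More of them then passed as lower in all 3 groups, as did more of all genes tested. In VAD_VAD the 0 calls stood beside 7 portal genes lower at an unadjusted p under 0.05. None of 13 smooth muscle and pericyte genes passed in limma in any of the 3 comparisons. At an unadjusted p under 0.05 were 6 in LF_HF (5 lower, 1 higher), 3 in VAD_VAD and 2 in BD_HF (all lower). Of all 17259 genes, 2871 in LF_HF, 1772 in VAD_VAD and 2208 in BD_HF had such a p. The smooth muscle count in BD_HF was thus near the share of all genes. Without LF_HF replicate 1 their median in LF_HF was -1.17, and some of them passed as lower in each group. Among 19 ligand and receptor partners of the members, Ntrk2, a neurotrophin receptor, fell by 4.46 on the log2 scale in LF_HF (SE 0.67; limma, adjusted p = 0.0248) and by 5.17 in VAD_VAD (limma, adjusted p = 0.0321). It read -0.096 and -0.061 on the BD_HF arrays, -1.35 and -2.98 in LF_HF, -3.72 and -2.02 in VAD_VAD, and 2.26 and 2.34 in LF_LF. With normexp background correction the differences were -3.39 in LF_HF and -3.84 in VAD_VAD. The VAD_VAD call was lost with the slide as a block (adjusted p = 0.0552). Dab1, the adaptor that relays the reelin signal, was also called as lower in LF_HF and BD_HF, where its probe was not well above background on any array. The probe passed the filter only through LF_LF, where it was highest, so these calls carry no weight and their size is not given. With normexp background correction the differences were -0.10 in LF_HF and 0.024 in BD_HF, neither past the threshold. Once LF_HF replicate 1 was left out, the partners' median in LF_HF was -1.48. More of them then passed in each group, some as lower and some as higher, as did more of all genes tested.

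**Figure D4:**
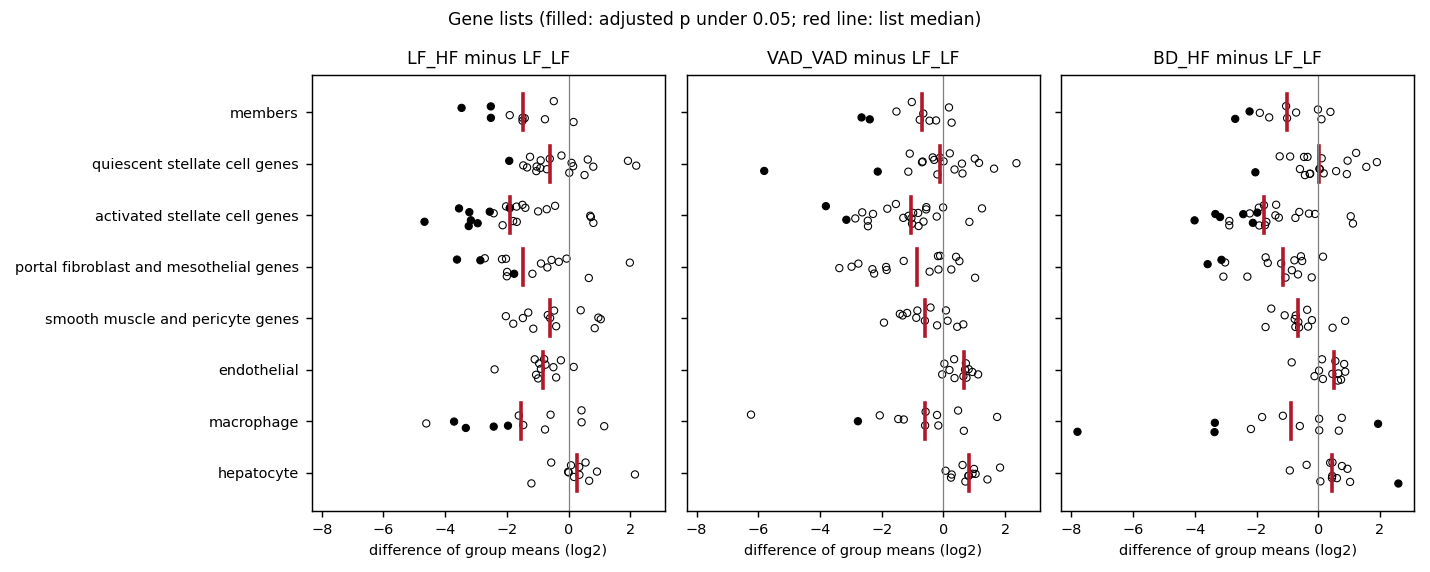
Differences from LF_LF on the log2 scale (horizontal axis) for the 10 markers and 7 gene lists (rows), in LF_HF, VAD_VAD and BD_HF; each point is a gene, filled where it passed an adjusted p under 0.05 in limma, and the red line is the list's median. The activated stellate cell genes have medians of -1.90, -1.04 and -1.76 in these panels, and the quiescent ones -0.61, -0.11 and 0.033.

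Markers of other liver cells also moved. The summed signal of 12 macrophage genes, as a multiple of the array's 75th percentile, was 89.1 to 100 in BD_HF, 62.9 to 72.6 in LF_HF, 81.7 to 124 in VAD_VAD and 170 to 188 in LF_LF. The sum was thus highest in LF_LF, but sums follow the brightest genes, above all Lyz2 here (6.68 and 6.46 in LF_LF). Gene by gene, 9 lay below LF_LF and 3 above it in LF_HF, 9 and 3 in VAD_VAD, and 7 and 5 in BD_HF. Of these 12 genes, 4 passed as lower in LF_HF, 1 in VAD_VAD and 3 in BD_HF, while 1 passed as higher in BD_HF. With LF_HF replicate 1 left out, the macrophage median in LF_HF was -1.71. More of these genes then passed as lower in each group, and some as higher in VAD_VAD and BD_HF, while calls rose over all genes tested too. The sum of 5 bile duct genes was at most 11.3 in BD_HF, 6.80 to 6.91 in LF_HF, 6.06 to 6.92 in VAD_VAD and 18.1 to 26.9 in LF_LF, again highest in LF_LF. Of 7 bile duct genes tested, 6 lay below LF_LF in LF_HF, and all 7 did in VAD_VAD and in BD_HF. In limma 2 of them passed as lower in LF_HF, 1 in VAD_VAD and 0 in BD_HF. Of all 17259 genes, 8856 lay below LF_LF in LF_HF, 7474 in VAD_VAD and 7163 in BD_HF. The 12 endothelial genes took another order, at 69.9 to 82.1 in BD_HF, 21.9 to 42.7 in LF_HF, 70.2 to 86.4 in VAD_VAD and 50.5 to 50.7 in LF_LF. None of them passed in limma. At an unadjusted p under 0.05 were 4 in LF_HF, all lower, and 1 in VAD_VAD and 1 in BD_HF, both higher. The counts in VAD_VAD and BD_HF were no larger than the share of all genes. In the fit without LF_HF replicate 1 the endothelial median in LF_HF was -1.23, and some of these genes passed there as lower, as did more of all genes tested. The 10 hepatocyte genes summed to 3090 to 3630 in BD_HF, 1810 to 3960 in LF_HF, 2840 to 4120 in VAD_VAD and 2250 to 2400 in LF_LF. Adrb3, of the adipocyte list, was the only listed gene on the array that was not well above background on any of the 8 arrays. The part of these cells in the members' differences was not tested.

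The genes whose levels followed a called member most closely over the 8 arrays were found by Pearson's r, given as a description since the arrays share 4 groups. For Lum they were Cryab (0.996), Rrm1 (0.988) and Snhg18 (0.985). For Pdgfrb they were Aldh1b1 (0.989), Septin11 (0.984) and Col1a1 (0.981). For Vim they were Bex3 (0.992), Ugt1a9 (0.987) and Casp12 (0.981), and for Ngfr they were Exo5 (0.978), Heyl (0.974) and Acad12 (0.971). Among the members, r exceeded 0.9 in 8 of 45 pairs, all of them among Dcn, Vim, Lum, Des and Pdgfra. Acta2, on the probe used for the gene, correlated negatively with Des, at -0.827 over 7 arrays. On the Acta2 probe A_52_P420504 the LF_LF arrays were the highest, as they were for Des. Ngfr correlated with Pdgfrb at 0.747 and with Lum at 0.389.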

How the data were processed

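Total liver RNA was amplified, labelled with Cy3 and hybridised to 8 single-colour Agilent arrays (design 014868), per the labels' protocols. Scans were quantified in Feature Extraction 10.7.3.1, as the headers state. In the deposited files stands each spot's processed signal as an intensity on a linear scale, corrected for background and spatial trend by the authors' software, per the file headers. The series table deposited beside them repeats these intensities, within 0.497%.

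Here log2 of the processed intensity was taken, minus each array's 75th percentile. Spots marked as outliers were left out, and spots of a probe were averaged. A probe was kept where some group read it well above background on both arrays, and the brightest probe stood for a gene. Differences were fitted with limma 3.58.1 (lmFit and eBayes, R 4.3.3) over all 8 arrays and 17259 genes, adjusted by Benjamini-Hochberg over all genes, and called at an adjusted p under 0.05. The fit was tested on simulated data. A difference printed with ± has its SE; only 2 arrays per group limit the precision.

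Replicate numbers were the same as slides, and the labels do not say that a number marks a shared litter or day. Deviations of same-numbered arrays correlated at 0.098 to 0.305, all above 0, which does not settle whether the slide should be in the fit. The main fit left it out. With it as a block, both VAD_VAD calls of members and the call of Pdgfrb in the F test were lost. The members and lists were chosen with earlier results of these data known. Named are all members, list genes called (up to 5 of lowest adjusted p per list and comparison), Lrat, Col1a1 and Col3a1, and the 3 genes most like each called member by Pearson's r; further called genes of short counts were named after their values were seen. Gene symbols came from RefSeq tables (GRCm38.p6), used for names and promoters; probe positions are in mm9. Alternatives covered background correction, scaling, filter, probe choice, outlier spots, variance model, array weights, arrays in the fit, slide block and each array left out. A called gene of the quiescent stellate cell list is counted but not reported by name here.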

Additional observations from a re-analysis of the deposited data

How the results depend on the processing

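With 2 arrays a group and 1 atypical LF_HF array sharing the estimate of spread, calls moved more than values. The directions of Pdgfrb, Lum and Vim against LF_LF held in every alternative run. Of the members' results under all alternatives, 743 kept direction and side of the threshold, 56 lost and 36 gained a call, and 19 reversed; the causes were not tested, beyond the fewer arrays of some fits.

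Counts of members called that differed from the report by over 1.5 times were as follows. For LF_HF against LF_LF (3 in the report) they were 6 with normexp, 6 with normexp and quantile, 6 with trended robust variances, and 0 without a filter, with array weights and on its own 4 arrays. For VAD_VAD against LF_LF (2) they were 1 with quantile scaling, 1 with the mean of a gene's probes, 1 with outlier spots kept, and 0 without a filter and with the percentile taken over probes detected on all arrays. For BD_HF against LF_LF (2) they were 1 with quantile scaling, 4 with normexp and quantile, 6 with array weights, 6 on its own 4 arrays and 0 without a filter. For any difference over the 4 groups (2) they were 5 with normexp, 4 with normexp and quantile, 4 with probes detected on all 8 arrays, 4 with trended variances, 4 with array weights, 1 with quantile scaling, 1 with outlier spots kept, and 0 without a filter and with the percentile over probes detected on all arrays.

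Leaving out each array in turn gave 0 to 6 members for LF_HF against LF_LF, 0 to 2 for VAD_VAD against LF_LF, 0 to 3 for BD_HF against LF_LF, 0 to 4 for any difference, and 0 to 0 for BD_HF against LF_HF. The lone array left in a group is assumed to vary like the others. Without both LF_HF arrays, an alternative chosen after seeing the data, VAD_VAD kept 2 calls and BD_HF 3 against LF_LF, among 914 and 1580 genes called.

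With the replicate block, which is also the slide, the members called were 3 for LF_HF, 0 for VAD_VAD and 2 for BD_HF against LF_LF, 0 for BD_HF against LF_HF, and 1 for any difference (Lum). It changed no other call of a member. The numbers are not known to pair the samples.

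The reversed values were these. For BD_HF minus LF_HF, Des was -0.28 with normexp and -1.73 with outlier spots kept, and Ngfr was -0.45 with the mean of probes. In the same comparison Acta2 was -0.015 with quantile scaling, -0.057 with normexp and quantile, -0.085 with the percentile over probes detected on all arrays, -0.57 with the mean of probes and -0.091 without LF_HF replicate 1. With that percentile Pdgfrb was -0.023 and Pdgfra -0.0015. Against LF_LF, the mean of probes gave Acta2 -0.24 in VAD_VAD and -0.34 in BD_HF, and Hgf -0.31 in VAD_VAD, while outlier spots kept gave Des 0.66 in LF_HF. Reln in BD_HF was 0.33 without BD_HF replicate 1 and 0.13 without LF_LF replicate 1, and in VAD_VAD 0.048 without VAD_VAD replicate 2. Acta2 in LF_HF was -0.16 without LF_HF replicate 2, and Hgf in BD_HF was -0.0042 without LF_LF replicate 2. At the other end, leaving out 1 array gave Acta2 0.55 for BD_HF minus LF_HF and 0.48 for LF_HF minus LF_LF, Reln -0.53 in VAD_VAD and -0.35 in BD_HF, and Hgf 0.20 in BD_HF, the last 3 against LF_LF.

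Over 5 scalings the median of all genes ran from -0.21 to 0.18 in LF_HF against LF_LF. Relative to it Lum lay at -3.45 to -3.19, Pdgfrb at -2.72 to -2.24 and Vim at -2.50 to -2.16. Genes called ran from 0 to 4189 for LF_HF (431 in the report), 0 to 1166 for VAD_VAD (109) and 0 to 2790 for BD_HF (262), each against LF_LF, from 0 to 3000 for BD_HF against LF_HF (1) and from 0 to 3944 for any difference (154). The share called higher was 24.8% in LF_HF, but 61.6% with normexp and 47.3% with the percentile over probes detected on all arrays. In VAD_VAD it was 16.5%, but 29.1% and 35.7% under the same settings, and in BD_HF it was 30.2%, but 41.6% with that percentile.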

Other observations

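Lists of cells that the markers do not name gave further values against LF_LF. Of 6 neutrophil genes tested, 1 rose in VAD_VAD in limma, S100a8, a calcium-binding protein of neutrophils and monocytes, by 5.75-fold (adjusted p = 0.0499), and the summed signal of 5 of them was 19.7 to 25.6 in VAD_VAD, against 4.50 to 4.67 in LF_LF. The call was lost with the slide as a block, where 0 neutrophil genes passed. Without LF_HF replicate 1 more of these genes passed as higher, as did more of all genes tested. The hepatocyte gene Cyp2e1, a cytochrome P450 that oxidises ethanol and fatty acids, rose 6.03-fold in BD_HF (limma, adjusted p = 0.0412), a call lost with the slide as a block (adjusted p = 0.0547) and kept in 12 of 22 alternatives (adjusted p from 0.0015 to 0.408). Trem2, a lipid-sensing receptor of macrophages, fell 13.1-fold in LF_HF (limma, adjusted p = 0.00509), 6.83-fold in VAD_VAD (adjusted p = 0.0270) and 10.3-fold in BD_HF (adjusted p = 0.00948). Its VAD_VAD call was lost in limma with the mean over its probes (adjusted p = 0.0933) and without a filter (adjusted p = 0.189). The LF_HF call was lost with array weights (adjusted p = 0.0684) and the BD_HF call without a filter (adjusted p = 0.0725). Of 10 lymphocyte genes and 3 skeletal muscle genes tested, 0 passed in any comparison in limma, and at most 1 of each list had an unadjusted p under 0.05 in a comparison. The summed signal of 3 adipocyte genes was 0.797 to 13.4 in BD_HF, 0.325 to 2.18 in LF_HF, 0.076 to 0.138 in VAD_VAD and 0.111 to 0.132 in LF_LF, with 0 of 3 genes called.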
